A study of Rattus norvegicus with 3 samples.

Results

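The genes described here are 9 rapid response genes that neurons switch on after activity: the zinc finger transcription factors Egr1, Egr2, Egr3 and Egr4, the orphan nuclear receptors Nr4a1, Nr4a2 and Nr4a3, the synaptic gene Arc and the transcription factor Npas4. They were taken by name, with every probe whose RefSeq accession belongs to one of them, and were found as 9 of 8893 genes that could be named on the array, with 1 probe each. The tissue was the rat vestibular nuclei, where inner ear input on balance enters the brainstem. Its RNA was read on 3 one-colour Agilent arrays, with 1 array per group: sham-operated controls, and the nuclei of the operated side 1 day and 7 days after removal of the left labyrinth. The rats, adult Sprague-Dawley males, weighed 200 to 250 g. The protocol names 3 rats per group because a single nucleus gave too little RNA, and the only agent or allele that differs between groups in the labels is the surgery. The controls are sham-operated in the sample labels and called normal in the protocol text, and which side was taken from them is not stated in those sources.

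With 1 array per group there is no replicate and no test of conditions, so a difference below is a log2 fold between 2 arrays, and 2-fold is a fixed size, not a test. Errors come from the spots of a probe on an array or from the scanner software's own error of a spot, and neither covers animals, dissection or labelling. Each array lay at its own position of 1 slide, so position and group cannot be told apart. A spot is well above background when the scanner software flags it so, and this held for 81.3% of spots in sham, 77.3% at day 1 and 76.9% at day 7. The lowest such signal was 66.9 intensity units in sham, 109 at day 1 and 122 at day 7, which sets the limit for the dim members. All 11 neuron markers with a named probe, all 7 astrocyte markers and all 7 oligodendrocyte markers were well above background on all 3 arrays. Of 5 markers of the neighbouring cerebellum with a named probe, Pax6 and Calb1 were well above background on all 3 arrays, Neurod1 and Car8 in sham alone, and Gabra6 on none. The cerebellar markers summed to 2.47 in sham, 3.27 at day 1 and 3.89 at day 7, relative to the 75th percentile. Most of that sum was Calb1, at 1.10, 1.40 and 1.85 log2 in the same order, whereas Pax6 stood at -1.88, -0.72 and -1.94. The part of cerebellar tissue in the differences below was not tested. In such bulk tissue, fewer cells of a type and less RNA per cell cannot be told apart.

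When a neuron fires, calcium entry and the MAP kinase cascade activate transcription factors that already sit at these genes, chiefly CREB at the cyclic AMP response element (CRE) and serum response factor with its Elk partners at the CArG box. Transcription starts within minutes without new protein synthesis, and the messages decay quickly. The Egr and Nr4a proteins and Npas4 then switch on later genes, whereas Arc acts at the synapse, where it promotes the removal of AMPA-type glutamate receptors. In the vestibular nuclei, loss of one labyrinth silences many neurons of the operated side, and activity there recovers as balance is regained, which is why activity genes are read in this tissue.

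The promoters of the 3 members with the largest differences at day 1 are shown because they hold the sites through which activity is known to reach these genes. Each line gives the 250 bases before the transcription start in RefSeq's GRCr8 table, 5′ to 3′. Capitals mark CArG boxes and the CRE core CGTCA, searched on both strands (TGACG on the other strand). Other transcripts of Egr2 and Nr4a1 start farther upstream, so their windows lie within the span of the gene.
Egr1 (GRCr8 chr18:26736828-26737077, plus strand): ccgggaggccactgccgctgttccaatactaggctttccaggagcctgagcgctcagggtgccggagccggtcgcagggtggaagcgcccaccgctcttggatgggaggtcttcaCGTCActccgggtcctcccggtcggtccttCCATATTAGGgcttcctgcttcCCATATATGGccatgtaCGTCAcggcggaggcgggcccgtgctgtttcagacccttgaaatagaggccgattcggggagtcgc
Egr2 (GRCr8 chr20:21054442-21054691, minus strand): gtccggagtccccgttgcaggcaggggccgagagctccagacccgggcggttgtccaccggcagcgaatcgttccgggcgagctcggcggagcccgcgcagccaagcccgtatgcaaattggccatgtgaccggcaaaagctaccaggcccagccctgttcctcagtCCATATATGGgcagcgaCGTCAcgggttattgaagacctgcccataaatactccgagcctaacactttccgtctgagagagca
Nr4a1 (GRCr8 chr7:134259888-134260137, plus strand): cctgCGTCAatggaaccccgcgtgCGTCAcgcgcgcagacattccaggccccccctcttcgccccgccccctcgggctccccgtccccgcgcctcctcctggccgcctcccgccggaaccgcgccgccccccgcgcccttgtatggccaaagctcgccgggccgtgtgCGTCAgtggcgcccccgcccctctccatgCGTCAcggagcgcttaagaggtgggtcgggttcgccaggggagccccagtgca

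In Egr1 and Egr2 the CArG box CCATATATGG lay at the same distance from the start, 83 to 74 bases before it, and a CRE core followed at 66 to 62 bases. Egr1 held a further CArG box, CCATATTAGG, at 105 to 96 bases and a further CRE core at 135 to 131 bases. Nr4a1 held 4 CRE cores, at 246, 226, 82 and 53 bases counted to their far end, and no CArG box. Of the 9 members, 6 had a promoter in the table, and the windows of Nr4a2 and Npas4 also lay within the span of the gene. A CRE core was found in 5 of these 6, compared with 19.0% of all 27457 promoters of the same length, and a CArG box in 2 of 6, compared with 412 of 27457. The 5 include Nr4a2, whose only core lay 8 to 4 bases before the start used here. The full CRE palindrome TGACGTCA, an EGR site (GCGTGGGCG) and the NBRE, the Nr4a site (AAAGGTCA), were in none of the 6 and in 1.70%, 0.514% and 1.11% of all promoters. Such matches of letters do not show binding.

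Egr1, the zinc finger factor also called Zif268 and a standard marker of neuronal activity, was lower on the day 1 array than on the sham array and slightly higher on the day 7 array than on the sham array. Its probe lay on 10 spots, of which 9 per array carried no outlier flag. These spots gave a lowest, median and highest intensity of 14681, 15791 and 18384 in sham, of 3625, 4389 and 4900 at day 1, and of 18421, 19232 and 20407 at day 7. All day 1 spots lay below all sham spots, while the day 7 spots all lay above the sham spots. On the log2 scale, relative to the array's 75th percentile, Egr1 stood at 1.47 ± 0.10 in sham, -0.29 ± 0.12 at day 1 and 1.77 ± 0.05 at day 7 (SD over 9 spots of 1 array).

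At day 1 against sham the log2 fold of Egr1 was -1.76 (SE 0.05 from spots), which is 3.38-fold lower, and all 8 positions with usable spots on both arrays were lower, by -1.90 to -1.60. Only 66 of 6288 genes measured on both arrays had a lower fold. Among the 200 probes on 10 spots measured on both arrays, 4.5% were at least 2-fold lower, 10.5% were at least 2-fold higher, and 2 had a lower fold than Egr1. Against sham, the day 7 fold was 0.31 (SE 0.04 from spots), or 1.24-fold higher, and all 8 positions were higher. That size was common on this array pair, where 72 of 194 probes on 10 spots were higher than Egr1 (12.9% of the 194 passed 2-fold upward and 7.22% downward), and it was 0.18 when arrays were scaled by their median and 0.37 under quantile normalization. Between the days, Egr1 was 4.18-fold higher at day 7 than at day 1 (log2 fold 2.06, SE 0.04 from spots), with 68 of 6138 genes above it. On that pair 4 of 192 probes on 10 spots were above Egr1, 7.29% passed 2-fold upward and 9.38% downward.

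**Figure D1:**
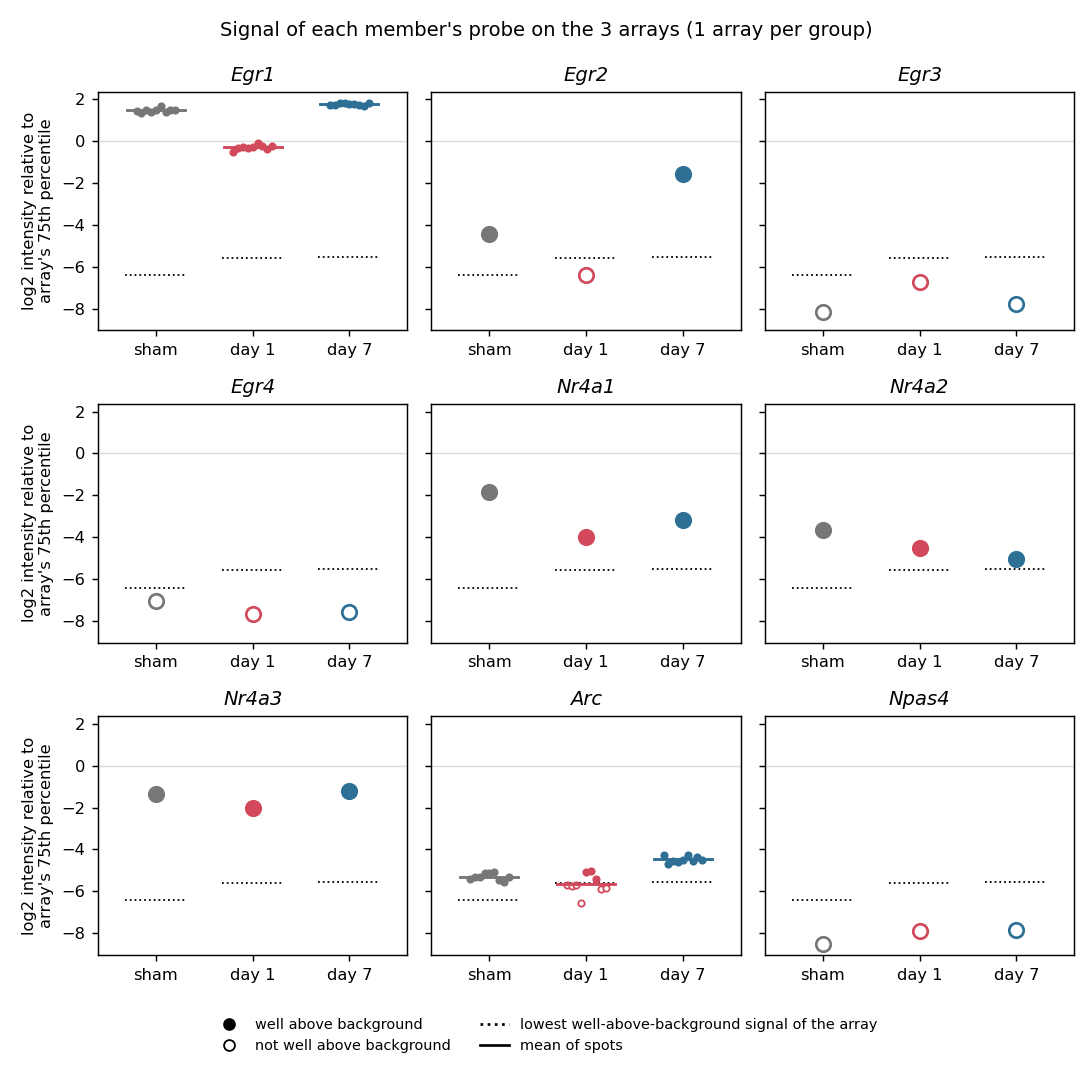
Log2 intensity relative to the array's 75th percentile (vertical axis) for the probe of each of the 9 genes in sham, at day 1 and at day 7. Small points are spots and bars their mean (Egr1 and Arc, 9 spots per array), large points are single spots, open symbols were not well above background, and dotted lines give the lowest well-above-background signal of each array. Egr1 dips at day 1, Egr2 is highest at day 7, Nr4a1 and Nr4a2 are highest in sham, and Egr3, Egr4 and Npas4 stay below the dotted lines.

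Egr2, or Krox20, patterns the hindbrain in the embryo and drives myelination by Schwann cells, as known from the mouse, and is also induced by activity. Its single spot read 263 ± 29.6 in sham, 61.9 ± 23.4 at day 1 and 1901 ± 192 at day 7 (scanner error). The sham and day 7 spots were well above background and the day 1 spot was not, so the day 1 value is only a bound. Egr2 was at least 2.23-fold lower at day 1 than in sham and 7.24-fold higher at day 7 than in sham (log2 fold 2.86 ± 0.22, scanner error). Only 28 of 6257 measured genes had a higher fold. Between the days it was at least 16.1-fold higher at day 7 than at day 1.

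Since Egr2 also belongs to Schwann cells, 7 Schwann cell markers were read, chosen after the value of Egr2 was seen. Of the 6 with a named probe, 5 were well above background on each array, and Prx, which encodes the Schwann cell protein periaxin, was not on any. Relative to the 75th percentile, the 6 summed to 5.01 in sham, 4.52 at day 1 and 4.65 at day 7. Pmp22, a peripheral myelin protein, made up most of this sum, at 1.72, 1.69 and 1.27 log2 in the same order. The sum therefore says little about the dimmer markers. Pmp22 had a log2 fold of -0.45 at day 7 against sham. Pou3f1, a transcription factor that acts ahead of Egr2 in Schwann cells of the mouse, was at 1.45 at day 7 against sham and at -0.56 at day 1 against sham. Ngfr, the low-affinity neurotrophin receptor, was at -1.75 at day 1 and at -1.53 at day 7 against sham. Gldn, like Egr2, was lower at day 1 (-0.68) and higher at day 7 (0.42) against sham, and Sox10 was at -0.13 and -0.15. Between the days the markers split, with log2 folds of 2.01 for Pou3f1, 1.10 for Gldn, 0.21 for Ngfr, -0.02 for Sox10 and -0.42 for Pmp22. The part of these cells in the Egr2 signal was not tested.

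The probes for Egr3 and Egr4, the other zinc finger members, were not well above background on any array. Egr3 read 20.0 in sham, 49.7 at day 1 and 25.8 at day 7, and Egr4 read 43.5, 25.7 and 29.2 intensity units in the same order. No difference could be read for them at this signal. The same held for Npas4, a neuron-restricted factor that calcium entry induces and that acts on Bdnf, with 15.4 in sham, 21.8 at day 1 and 24.9 at day 7.

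The Nr4a receptors bind DNA without a known natural ligand, and all 3 were lower on the day 1 array than in sham. Nr4a1, or Nur77, read 1579 ± 159 in sham, 328 ± 41.1 at day 1 and 635 ± 70.0 at day 7 (scanner error of 1 spot). It was highest in sham, lowest at day 1 and between them at day 7. The scanner software flagged the local background beside this spot as an outlier on the sham and day 7 arrays. Nr4a1 was 4.43-fold lower at day 1 than in sham (log2 fold -2.15 ± 0.23, scanner error), with 25 of 6288 genes lower still. At day 7 it was 2.48-fold lower than in sham (-1.31 ± 0.22).

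Nr4a2, or Nurr1, needed for midbrain dopamine neurons, read 444 ± 47.3 in sham, 232 ± 33.8 at day 1 and 169.8 ± 33.4 at day 7. Its level was lower at day 7 than at day 1, unlike that of Nr4a1, with a log2 fold between the days of -0.56 ± 0.35 (scanner error). Nr4a2 was at -0.82 ± 0.26 log2 at day 1 against sham and at -1.38 ± 0.32 at day 7 against sham, or 2.61-fold lower. Nr4a3, or NOR-1, read 2259 ± 227 in sham, 1277 ± 130 at day 1 and 2416 ± 243 at day 7. It was at -0.70 ± 0.21 log2 at day 1 against sham, while its fold of 0.10 ± 0.20 at day 7 against sham was smaller than the scanner error and had the opposite sign, -0.03, with median scaling.

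Arc was dim on all 3 arrays and highest at day 7. Without outlier flags, its 9 spots gave a lowest, median and highest intensity of 121, 142 and 166 in sham, of 55.4, 101 and 158 at day 1, and of 216, 249 and 295 at day 7. These spots at day 7 lay above all those of day 1 and sham, whereas those of day 1 and sham overlapped. All 9 spots were well above background in sham and at day 7, but 3 of 9 were at day 1. Arc was 1.78-fold higher at day 7 than in sham (log2 fold 0.83, SE 0.07 from spots), and all 8 usable positions were higher. On that array pair 32 of 194 probes on 10 spots were higher than Arc, and the fold was 0.52 under cyclic loess. At day 1 against sham the bound was at least 1.21-fold lower, and 6 of 8 positions were lower and 2 higher. The bound between the days was at least 2.15-fold higher at day 7 than at day 1, with all 8 positions higher.

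The averaging of spots decides how Arc looks at day 1. In the authors' deposited table Arc stands at 144 in sham, 145 at day 1 and 255 at day 7, a log2 fold of 0.00 at day 1 against sham. The 3 spots that were well above background at day 1 average 145, and all 9 unflagged spots average 108, which gives a fold of -0.42 without scaling. Among the probes on 10 spots in the authors' deposited table that were well above background on only some unflagged spots of an array, numbering 25 in sham, 15 at day 1 and 16 at day 7, every value equalled the mean of those detected spots within 0.1%. Egr1, detected on all unflagged spots, stands at 4305 at day 1 and 15778 in sham in the authors' deposited table.

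**Figure D2:**
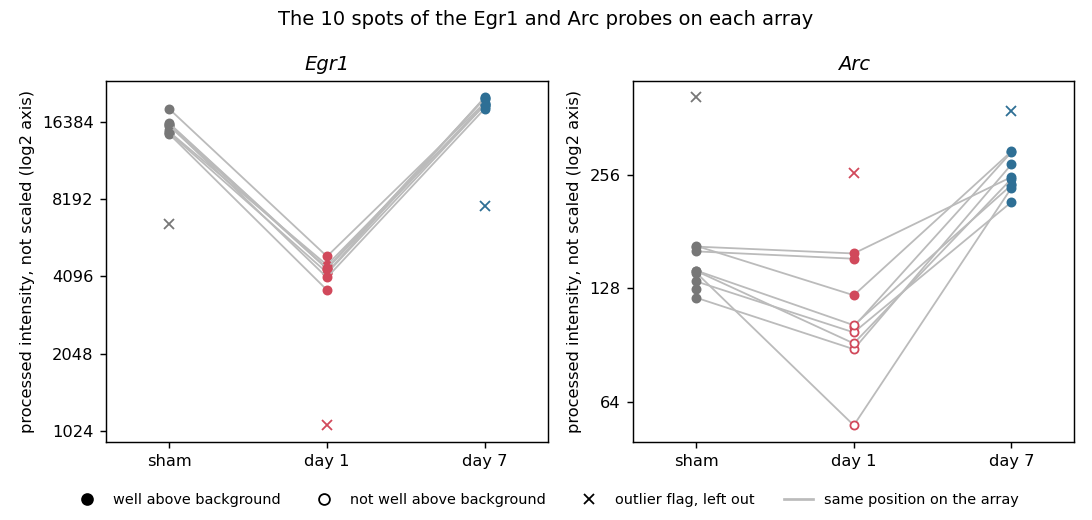
Processed intensity without scaling between arrays (log2 axis) of the 10 spots of the Egr1 and Arc probes in sham, at day 1 and at day 7. Lines join spots at the same position, crosses carry an outlier flag and were left out, and open points were not well above background. All Egr1 spots without a flag lie lower at day 1 than in sham and at day 7. Among the Arc spots without a flag those of day 1 and sham overlap and those of day 7 lie above both.

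The 9 members were read against all named genes measured on the same 2 arrays. At day 1 against sham, 4 members were measured on both arrays, of which 2 (Egr1 and Nr4a1) were at least 2-fold lower, compared with 4.37% of 6288 genes, and 0 were at least 2-fold higher, compared with 8.27%. Without scaling between arrays, those shares of all genes were 5.66% and 6.55%. A further 2 members, Egr2 and Arc, had a bound in the lower direction, and 3 were not well above background on either array. The side of a bound follows from which array passed detection, and the Arc spots of day 1 and sham overlapped. The 4 measured members had a median log2 fold of -1.29, with 0.00 for all genes.

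At day 7 against sham, 6 members were measured, of which 2 (Nr4a1 and Nr4a2) were at least 2-fold lower, compared with 5.74% of 6257 genes. In the other direction 1 (Egr2) was at least 2-fold higher, compared with 11.2%. Under median scaling the shares of all genes were 7.26% and 8.60%. The median of the 6 was 0.20, with 0.05 for all genes, so the family had no common direction at day 7. Between the days, 1 of 4 measured members (Egr1) was at least 2-fold higher at day 7, compared with 6.57% of 6138 genes, and 0 were at least 2-fold lower, compared with 5.33%. Without scaling those shares were 8.47% and 4.37%. The median of the 4 was 0.82, with 0.04 for all genes. The comparisons of both days share the sham array, so a high or low sham value moves both.

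**Figure D3:**
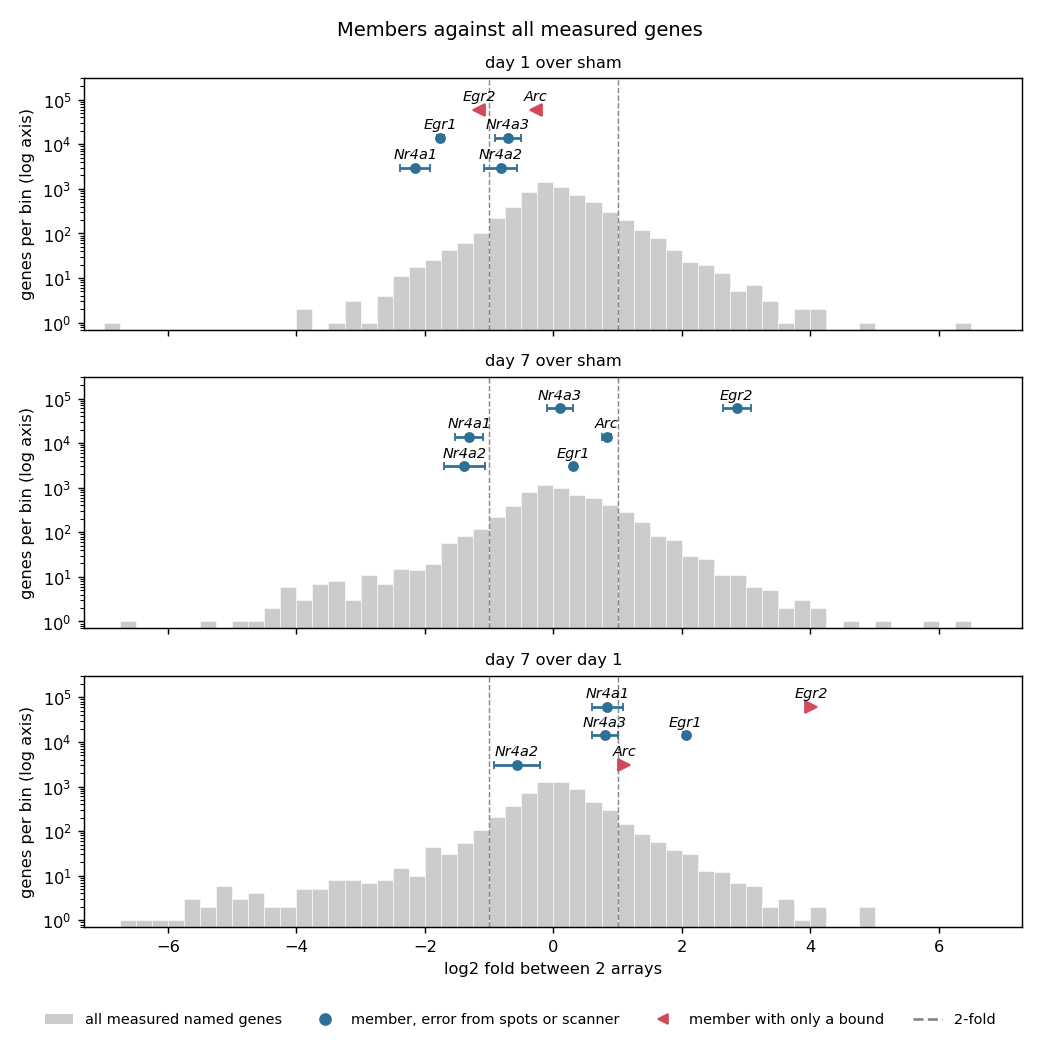
Log2 folds of the members (points, with error bars from spots or scanner; triangles are bounds pointing away from 0) over the distribution of all measured named genes (grey bars, genes per bin on a log axis) in each comparison. The height of a point has no meaning. At day 1 over sham the 4 measured members lie left of 0. The 2 bounds there, Egr2 and Arc, can only lie on that side because these genes passed detection in sham alone of the 2 arrays. At day 7 over sham the members spread from -1.38 for Nr4a2 to 2.86 for Egr2.

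The members followed different courses over the 3 arrays. Egr1 was more than 2-fold lower at day 1 and within 2-fold of sham at day 7, as were 149 of 6043 genes measured on all 3 arrays. Nr4a1 was more than 2-fold lower at both days, as were 102 genes. The genes nearest to Egr1 in their pair of folds over sham, by Euclidean distance among 3436 brighter genes, were Tlr2 (distance 0.08), Glycam1 (0.22), Dnph1 (0.26), Cspg5 (0.31) and Akt2 (0.40), each on 1 spot. Tlr2, a pattern recognition receptor of microglia, was at -1.80 at day 1 and at 0.24 at day 7 against sham. Over 3 arrays such likeness is easily reached.

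Most microglia markers, like Egr1 and the Nr4a genes, read lower at day 1 than in sham. Of 6 markers with a named probe, 5 were well above background in sham, 3 at day 1 and 5 at day 7, and P2ry12 was left out at day 1 by an outlier flag. The other 5 summed to 1.45 in sham, 0.73 at day 1 and 1.42 at day 7, relative to the 75th percentile. Aif1 was at -1.08 and Csf1r at -0.93 log2 at day 1 against sham. Itgam and Cd68 were no longer well above background at day 1, and Cx3cr1 went the other way, well above background at both days but not in sham. The 11 neuron markers, of which 2 were saturated in sham, summed to 50.4 in sham, 49.8 at day 1 and 39.6 at day 7. Of 9 measured at day 7 against sham, the neurofilament genes Nefh (-2.30), Nefl (-1.61) and Nefm (-1.17) were more than 2-fold lower. The other 6 were within 2-fold of sham, and Snap25 (0.47) and Stmn2 (0.20) were higher. Choroid plexus and ependyma markers summed to 0.93 in sham, 0.75 at day 1 and 2.07 at day 7. The part of these cell types in the members' differences was not tested.

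Among 32 other rapid early genes, 20 were measured at day 1 against sham, with 6 at least 2-fold lower, 1 higher, 13 neither and a median of -0.08. For all genes measured on that pair the shares were 4.37% lower and 8.27% higher. The lowest of the 20 were Btg2 (-2.20), an antiproliferative factor, Ccn1 (-2.09), a secreted matrix protein, and Ier2 (-1.99), a nuclear early response factor. Sik1, a kinase that restrains CREB coactivators, was the only one of the 20 at least 2-fold higher by its brightest probe (1.30). A further 3 were well above background on 1 of these 2 arrays only. Fosl1 was at -3.38 log2 relative to the 75th percentile at day 1 and not well above background in sham (-8.32). Dusp1 (-4.14 in sham, -6.09 at day 1) and Klf2 (-6.04 and -5.97) were well above background in sham but not at day 1. The probes of Mcl1, a survival gene, disagreed, at 0.16 by the brightest and 1.61 by the other at day 1, and at -0.36 and 1.02 at day 7 against sham. For day 7, 21 were measured against sham, with 4 lower, 3 higher, 14 neither and a median of -0.12. For all genes the shares were 5.74% lower and 11.2% higher. The farthest of the 21 were Btg2 (-2.16), Ccn1 (-2.11, and -0.02 by another probe), Gadd45b (-1.35), Klf2 (1.86), Dusp2 (1.39) and Atf3 (1.03). Klf2 was dim in sham, at -6.04 log2 relative to the 75th percentile, where the lowest well-above-background signal was -6.41. Jund, an AP-1 subunit, was not measured by its brightest probe and was at 1.04 at day 7 against sham by the other. Comparing day 7 with day 1, 2 of 20 were higher, Atf3 (2.00) and Fos (1.12), and 2 were lower, Sik1 (-1.47) and Plk2 (-1.06). Of all genes, 6.57% were at least 2-fold higher and 5.33% lower on that pair.

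Of 25 listed regulators that switch the members on, 14 had a named probe. Srf, which encodes serum response factor, and its partners Elk1 and Elk4 had none. Those with a probe were mostly within 2-fold of sham. Of 14 measured, 2 were at least 2-fold higher at day 1 and 0 lower, compared with 8.27% and 4.37% of all genes. The 2 were Mef2d (2.59), a calcium-responsive factor, and Creb1 (1.71, and 1.28 by another probe), which encodes CREB itself. Creb1 (1.39, and 1.58 by another probe) was the only one past 2-fold at day 7 against sham (all genes, 11.2% higher and 5.74% lower). Mef2d (-1.77) was the only one at day 7 against day 1. Creb1 was dim in sham, at -5.96 log2 relative to the 75th percentile. That lies below the lowest well-above-background signal of the day 1 (-5.59) and day 7 (-5.55) arrays, though above that of sham (-6.41). The median of the 14 was 0.15 at day 1 and 0.03 at day 7 against sham.

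Genes whose products pair with or restrain the members were measured in 9 cases. Arnt, a partner of the bHLH-PAS class to which Npas4 belongs, was at 1.74 at day 1 and 2.34 at day 7 against sham, and Arnt2, its brain-enriched relative, at 0.92 and 0.90. Rxra, a retinoid receptor that pairs with Nr4a1 and Nr4a2, was at 0.72 at day 1 and 1.94 at day 7 against sham, and at 1.22 at day 7 against day 1. The other 7 were within 2-fold of sham at both days by their brightest probe. Camk2b, a calcium-dependent kinase subunit that binds Arc protein, was at -0.01 at day 1 and -0.18 at day 7 by that probe, at -1.05 and 0.15 by another and at -0.72 and -1.17 by the remaining one. Nab1, a corepressor that binds Egr1 and Egr2, was at 0.08 at day 1 and -0.01 at day 7.

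Delayed activity genes, which the Egr, Nr4a and Npas4 factors and CREB feed into, showed no shared direction where measured. At day 1 against sham 1 of 13 measured was at least 2-fold higher and 0 were lower, with a median of 0.04. The one was Syt4 (2.28), a synaptotagmin of dense-core vesicles. A further 2, Plat and Ptgs2, were well above background in sham but not at day 1. Plat stood at a log2 level of -4.11 in sham and -6.53 at day 1. The lowest well-above-background level at day 1 was -5.59, so the bound for Plat was more than 2-fold lower. Ptgs2 stood at -5.76 in sham and -5.83 at day 1, so its sham level already lay below that limit. Plat was at -0.62 at day 7 against sham. Syt4 was at 1.20 at day 7 against sham and Inhba, an activin subunit, at -1.88, and the other 12 of 14 were within 2-fold. Bdnf, a neurotrophin, was at 1.13 (1.25 by another probe) at day 7 against day 1, where Inhba was at -1.87 and Syt4 at -1.08. Against sham the 2 Bdnf probes disagreed in sign at day 1 and in size at day 7, at -0.31 and 1.03 at day 1 and at 0.82 and 2.27 at day 7. Pcsk1, a prohormone convertase, was at 0.45 by its brightest probe and 1.04 by the other at day 1.

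**Figure D4:**
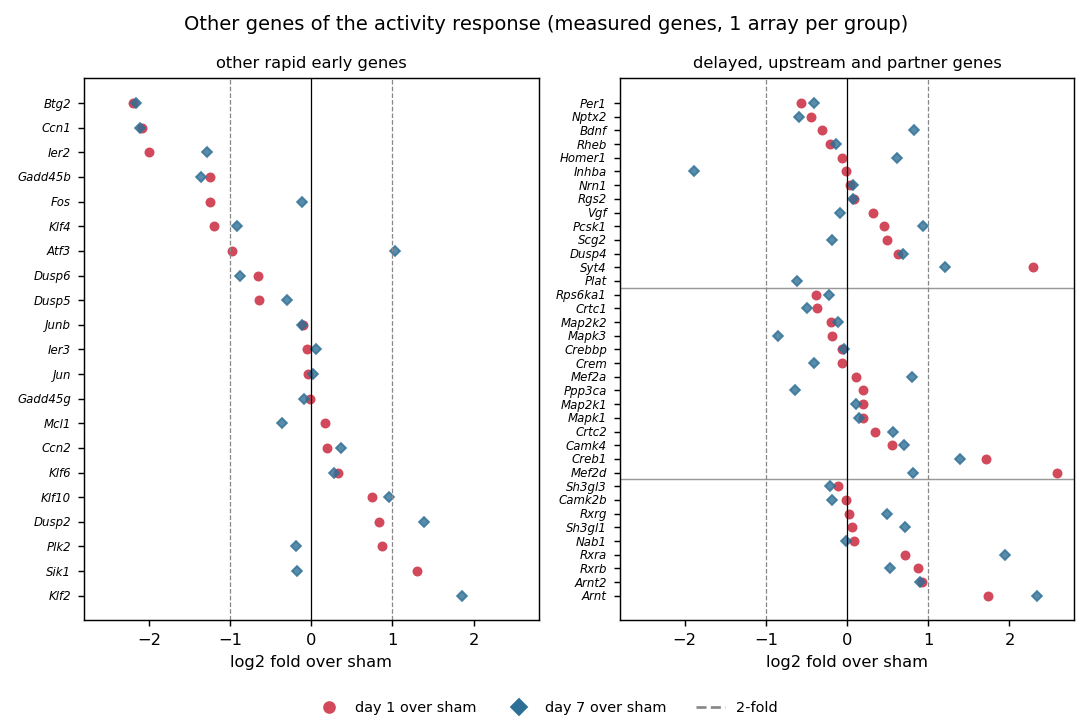
Log2 fold over sham at day 1 (circles) and day 7 (diamonds) for each measured gene of the other rapid early genes (left) and of the delayed, upstream and partner genes (right, separated by lines from top to bottom); dashed lines mark 2-fold. Btg2, Ccn1 and Ier2 lie left of the 2-fold line at both days, and Creb1 and Arnt, both dim in sham, lie right of it at both days.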

How the data were processed

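RNA was measured on 3 Agilent arrays in 1 colour (Cy3), 1 per group. Per the file headers, the authors read them with Feature Extraction 10.7.3.1, and the deposited intensity per spot is background-subtracted, on a linear scale and not scaled between arrays. The array design was built on rn4, and the only coordinates given are those of the GRCr8 promoter windows. Levels here are the log2 processed intensity after subtracting each array's own 75th percentile (5692 in sham, 5242 at day 1, 5676 at day 7). Spots with a feature outlier flag were left out (163, 224 and 193 in the same order) and spots of a probe averaged. Other deposited columns are flags per spot.

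RefSeq accessions named 10759 of 41012 probes through the GRCr8 table. The other probes stayed unnamed here. The authors' deposited table of intensities was an alternative. A gene was read by its brightest probe. It counted as measured when at least 50% of usable spots were well above background, and fewer than 50% saturated, on each array compared. The bound for a dim gene uses the higher of its own signal and the lowest signal well above background. The fold code was tested on simulated data. Named list genes were those past 2-fold, or the 3 farthest per direction where more than 5 passed. The members, lists and rules were chosen with earlier results of these data known. One marker gene is not reported here. Tools were Python 3.11.15, pandas 2.3.3 and limma 3.58.1. The normexp alternative (offset 50) used the median spot signal because the files hold no mean signal.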

Additional observations from a re-analysis of the deposited data

Results flagged for a closer look

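Egr2 went opposite ways on the arrays after surgery. It was at most -1.15 on the log2 scale at day 1 against sham, as a bound, and at 2.86 at day 7 against sham. This was picked out because the effects at the 2 times had opposite signs and both passed 2-fold, and the difference between them was not tested. Each value rests on 1 spot per array and both share the sham spot.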

How the results depend on the processing

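No paired analysis was possible because each group has 1 array and no result comes from a test. For the same reason no array could be left out. Each of the 14 folds of a member measured on both arrays was recomputed under 9 alternatives, and all kept their side of 2-fold. All kept their sign except Nr4a3 at day 7 against sham (-0.03 with median scaling). The mean over probes equals the value given, since each member has 1 named probe. For members on 1 spot, keeping flagged spots or taking the median over spots could not change the fold. For them the authors' deposited table gave the same fold as no scaling, so fewer than 9 alternatives were distinct. Counts of members moved as follows. With a threshold of 1.5-fold, 4 were lower at day 1 against sham, 2 higher at day 7 against sham and 3 higher at day 7 against day 1. With no filter on dim probes, 1 was higher (Egr3, below background on both arrays) and 3 were lower (Egr2 added) at day 1 against sham, 1 was lower and 3 higher at day 7 against day 1, and the median at day 1 against sham was -0.70 over all 9. With brighter probes alone, 2 members (Egr1 and Nr4a3) were left by construction, with 1 lower at day 1 against sham, 0 lower and 0 higher at day 7 against sham, and a median of 1.43 at day 7 against day 1. With the normexp background, Nr4a2 was at -1.01 and Egr2 at 2.51 at day 7 against sham, and Nr4a1 was at -1.84 and Nr4a2 at -0.52 at day 1 against sham. Scaling also moved the median fold over all genes. For day 1 against sham it stood at -0.12 without scaling (0.00 as given), for day 7 against day 1 at 0.15 without scaling (0.04 as given), and for day 7 against sham at -0.08 with median scaling (0.05 as given). Depth of signal limits Egr3, Egr4, Npas4, Arc and the day 1 value of Egr2. With 1 array per group, no spread between animals is known.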

Other observations

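In both probes on 10 spots, 1 spot per array carried an outlier flag. The left-out Egr1 spots read 6566 in sham, 1076 at day 1 and 7697 at day 7, below all used spots of their array. The left-out Arc spots read 410.3 in sham, 259 at day 1 and 377 at day 7, above all used spots of their array. With the flagged spots kept, Egr1 was at -1.83 log2 at day 1 against sham and Arc at 0.73 at day 7 against sham.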
